A study of Homo sapiens with 4 samples.

Results

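Keratins of simple, ductal and squamous epithelia were followed in HuH7, an established cell line of human hepatocellular carcinoma. The 10 keratin genes were taken by name, and the values described are those of all probe sets (groups of short probes that read the same transcript) whose only gene symbol in the platform annotation was KRT5, KRT7, KRT8, KRT15, KRT17, KRT18, KRT19, KRT20, KRT23 or KRT80. This gave 13 of the 54613 probe sets measured, for 9 of the 10 genes. KRT17 had 0 probe sets under this rule and was not analysed here. KRT7 had 4 probe sets, KRT19 had 2, and each of the other genes had 1.

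The study compared wild-type HuH7 cells (2 arrays) with HuH7 cells carrying a CRISPR/Cas9 knockout of KDM6B (2 arrays), a demethylase that removes a repressive methyl mark from histone H3. It asks how loss of KDM6B changes gene expression in liver cancer linked to lipotoxicity, G0S2 in particular. All cells shared the HuH7 background and the same culture medium with fetal serum. Knockout cells were made by transfecting a single guide and a Cas9 vector, selecting with G418 and taking several subclones by limiting dilution. Which subclones gave the 2 knockout arrays is not stated in the labels, nor is whether wild-type cells went through transfection, selection or cloning. Loss of KDM6B and differences between subclones and wild-type cells therefore cannot be told apart. It is also unstated whether arrays of a group came from separate cultures, so p-values measure only the spread between these arrays, which may be technical. The guide that defines the knockout is shown because every comparison rests on it. Its place in the genome was not determined here, and no letters are in capitals.
KDM6B guide: cacagcgcccttcgatacgg

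Keratins are the intermediate filament proteins of epithelial cells. Each filament is built from pairs of an acidic type I and a basic type II keratin, so the members of a pair are usually made together and an unpaired keratin is degraded. Hepatocytes make KRT8 with KRT18 only, bile duct cells add KRT7 and KRT19, intestinal epithelium adds KRT20, and stratified epithelia make KRT5 and KRT15 in their basal layer. Cancers of the liver can gain ductal keratins such as KRT19, which pathologists use as a marker of a progenitor or biliary phenotype.

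KDM6B, the targeted gene, read 8.46 and 8.27 in wild type against 7.95 and 8.14 in knockout on its brightest probe set, in log2 units. The difference of -0.32 (SE 0.13) did not pass the test (limma adjusted p = 0.328). Differences on its 5 probe sets lay between -0.40 and -0.21, 4 of them with no overlap of the groups. Lower values in knockout without overlap were found for 19.9% of all probe sets. Of the 5, 0 passed (limma adjusted p = 0.230 to 0.608, with 2 at an unadjusted p under 0.05). Whether the cut shifted the reading frame was not tested, and neither was its effect on the KDM6B protein. Over all probe sets, the correlation was 0.992 between the wild-type arrays, 0.994 between the knockout arrays and 0.985 to 0.989 across groups. Of all probe sets, 696 were higher and 891 lower in knockout at an adjusted p under 0.05, which is 2.91% of them, and only such probe sets are said to have risen or fallen. The share was 4.82% when each of 19775 genes was read by its brightest probe set, with 434 rising and 519 falling. Counts of listed genes below are to be read beside these.

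Of the 13 keratin probe sets, 3 rose in knockout, 0 fell and 10 did not pass. The background was 1.27% of all probe sets rising and 1.63% falling. Among those that rose, KRT15, a type I keratin of basal and stem-like cells, changed most, by 3.60-fold, followed by KRT8, the type II keratin of hepatocytes, and KRT19, the smallest type I keratin. The groups did not overlap for 5 keratin probe sets that were higher in knockout and 4 that were lower. Over all probe sets this held for 40.5%, of which 20.5% were higher and 19.9% lower, as shares of all. The median log2 difference was 0.08 over the keratin probe sets and 0.01 over all probe sets. Over the 9 genes by their brightest probe set it was 0.38, against 0.01 over all genes. The 0.38 is the value of KRT80, for which a level above background was not shown. In bulk RNA, a change in the number of cells of a kind and in the RNA per cell cannot be told apart. Of the 5 type I genes measured, 2 rose (median 0.53), and of the 4 type II genes 1 rose (median 0.23). The type II median lies between the values of KRT7 and KRT80, so it rests on KRT80 too.

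**Figure D1:**
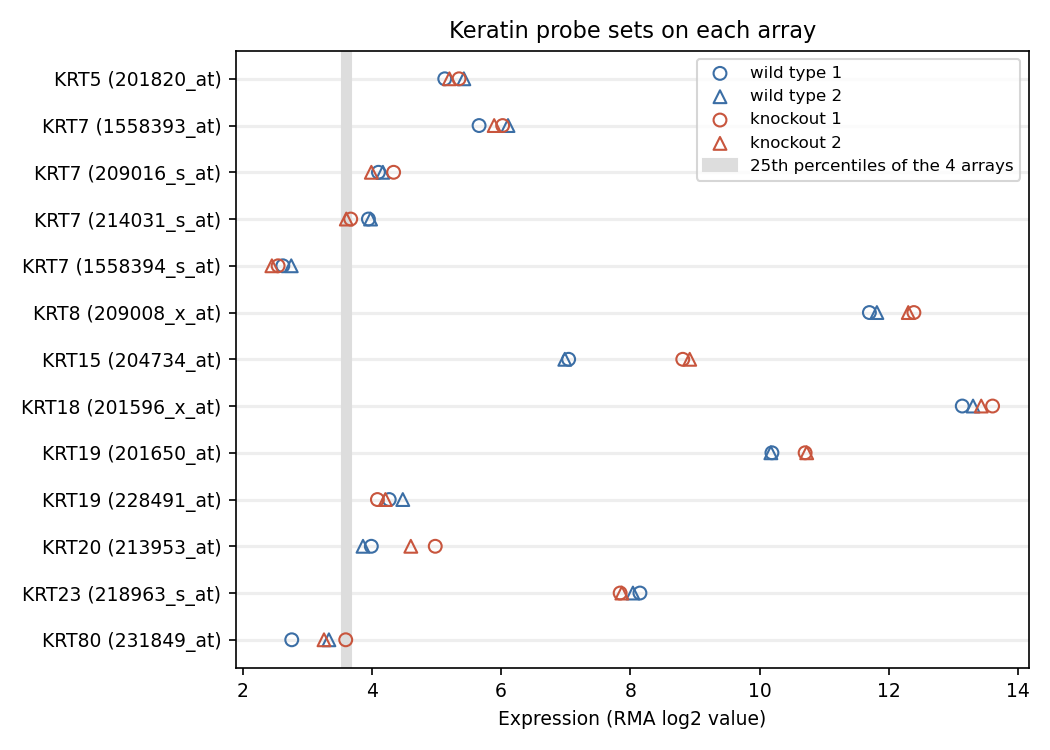
Log2 expression of each of the 13 keratin probe sets (rows) on the 2 wild-type arrays (blue) and the 2 knockout arrays (red), with circles for replicate 1 and triangles for replicate 2. The grey band spans the 25th percentile of the 4 arrays; KRT15 stands clear between groups, from 6.99 to 7.05 in wild type and from 8.81 to 8.92 in knockout, while KRT80 and the dimmest KRT7 probe set lie in or below the band.

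KRT8 and KRT18 form the keratin pair of hepatocytes. KRT8 gave 11.70 and 11.82 in wild type against 12.39 and 12.30 in knockout, so both knockout arrays lay above both wild-type arrays. It rose 1.5-fold, from 11.76 ± 0.08 to 12.34 ± 0.06 (SD, n = 2 each). This is 0.59 on the log2 scale (SE 0.09), with a limma adjusted p of 0.030. Its partner KRT18 gave 13.14 and 13.30 in wild type against 13.61 and 13.43 in knockout. Here too the groups did not overlap, but the highest wild-type array lay close to the lowest knockout array. The KRT18 difference of 0.30 (SE 0.10, 95% interval 0.05 to 0.54 without adjustment) did not pass (limma adjusted p = 0.238).

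Both genes of this pair were read by probe sets of a type that may cross-hybridise with related transcripts, and both have many pseudogene copies in the genome, so their values are uncertain. Of the keratin pseudogenes, KRT8P12 had 2 probe sets, with log2 differences of 0.36 and 0.07, neither of which passed. The KRT8 call ended when any single array was left out, at adjusted p = 0.245 (wild type 1 left out), 0.170 (wild type 2), 0.398 (knockout 1) or 0.349 (knockout 2), with log2 differences of 0.53 to 0.64. A variance prior with no trend ended it too (adjusted p = 0.128).

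RefSeq (GRCh38.p14) promoter sequences matched KRT5, KRT8 and KRT20, 3 of the 10 genes, and ran from 250 bases before to 50 bases after a gene start. The KRT8 window, chr12:52926420-52926719 on the minus strand, is shown because KRT8 rose. It lies inside the annotated span of the gene and not at the outermost start, so it is 1 of the possible starts only. Capitals mark matches on either strand to CCNCNCCC, the GC or CACCC box bound by KLF and SP factors, or to TTTAT, the core bound by CDX factors, which were chosen with the changes of KLF and CDX genes known. TGANTCA, the site of AP-1, was searched too. A further search was for the TATA box, spelled TATAAA, whose reverse strand overlaps the CDX core.
KRT8 promoter: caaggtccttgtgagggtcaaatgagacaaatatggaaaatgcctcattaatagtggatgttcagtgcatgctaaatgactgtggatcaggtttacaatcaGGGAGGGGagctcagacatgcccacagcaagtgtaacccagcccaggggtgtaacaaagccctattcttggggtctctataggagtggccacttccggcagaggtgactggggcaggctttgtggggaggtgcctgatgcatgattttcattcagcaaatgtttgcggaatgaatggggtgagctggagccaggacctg
KRT20 promoter: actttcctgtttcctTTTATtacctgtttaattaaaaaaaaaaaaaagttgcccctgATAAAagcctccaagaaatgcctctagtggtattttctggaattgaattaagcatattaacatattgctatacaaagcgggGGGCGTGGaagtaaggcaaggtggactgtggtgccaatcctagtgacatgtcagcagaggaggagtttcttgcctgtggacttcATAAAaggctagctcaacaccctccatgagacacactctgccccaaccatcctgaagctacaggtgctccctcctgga
The KRT8 window held 1 match to CCNCNCCC, beginning at position -149 from the start, and 0 to the other 3 motifs. The KRT20 window, chr17:40885193-40885492 on the minus strand, held 1 match to CCNCNCCC and 3 to TTTAT, at positions -235, -193 and -28. It held 0 to TATAAA and 0 to TGANTCA. The KRT5 window held 1 match, to TTTAT, at position -29. The matches at -193, -28 and -29 read ATAAA, letters that also end TATAAA, so they are not particular to CDX factors. Among all 35116 promoters of this length, 56.2% held the KLF motif and 34.9% the CDX core. The AP-1 motif was in 7.71% and the TATA box in 11.5%. A match describes letters only and is not a binding site.

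KRT19 and KRT7, the bile duct keratins, differed in their calls. The brighter KRT19 probe set gave 10.19 and 10.17 in wild type against 10.71 and 10.73 in knockout. Arrays of a group lay 0.02 apart, and both knockout arrays were above both wild-type arrays. KRT19 rose 1.45-fold, from 10.18 ± 0.01 to 10.72 ± 0.02 (SD, n = 2 each). On the log2 scale this is 0.53 (SE 0.08), with a limma adjusted p of 0.035. The second KRT19 probe set pointed the other way, at 4.27 and 4.48 in wild type against 4.09 and 4.21 in knockout. All 4 values lay below the median of their array, and the difference of -0.23 (SE 0.17) did not pass (limma adjusted p = 0.679).

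The KRT19 call changed with the setting. With the mean of both probe sets its log2 difference was 0.15 (adjusted p = 0.503), and with arrays centred on their medians 0.50 (adjusted p = 0.064). It ended with each array left out as well, at adjusted p = 0.234 (wild type 1), 0.219 (wild type 2), 0.394 (knockout 1) or 0.395 (knockout 2), although the difference stayed between 0.52 and 0.55.

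KRT7 gave no call on any of its 4 probe sets, and they differed in sign. The brightest read 5.66 and 6.11 in wild type against 6.02 and 5.89 in knockout, so the groups overlapped. Its log2 difference was 0.08 (SE 0.19, 95% interval -0.39 to 0.54, limma adjusted p = 0.948). The second probe set had a difference of 0.03, which turned to just below 0 under repeated quantile normalization and under median centring. The other pair of probe sets was lower in knockout without overlap, at -0.32 and -0.19, and neither passed (limma adjusted p = 0.423 and 0.670). The dimmest lay below the 25th percentile on all 4 arrays, so a level above background was not shown for it.

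KRT15, known from the basal layer of stratified epithelium and from hair follicle stem cells, had the largest change of the keratins. It gave 7.05 and 6.99 in wild type against 8.81 and 8.92 in knockout. The gap between the groups was many times the spread within them. The means were 7.02 ± 0.04 and 8.87 ± 0.08 (SD, n = 2 each). They differed by 1.85 on the log2 scale (SE 0.11, 95% interval 1.58 to 2.12), with a limma adjusted p of 0.0028. Its probe set is not of the type marked as likely to cross-hybridise.

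With single arrays left out, the KRT15 difference stayed between 1.80 and 1.90. The adjusted p was then 0.0499 (wild type 1 left out), 0.055 (wild type 2), 0.199 (knockout 1) or 0.189 (knockout 2). Fewer arrays leave 1 residual degree of freedom, and without either knockout array 0 of all probe sets were called, although 4670 and 4947 had an unadjusted p under 0.05.

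KRT5, a basal keratin and the usual type II partner of KRT14, did not move with KRT15. It gave 5.13 and 5.42 in wild type against 5.35 and 5.20 in knockout, and the groups overlapped. The log2 difference was -0.00 (SE 0.17, 95% interval -0.42 to 0.42, limma adjusted p = 1.000). KRT14, also of the basal layer, lay below the 25th percentile on all 4 arrays (log2 difference 0.04, limma adjusted p = 0.972).

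KRT20 marks intestinal epithelium and the surface cells of the urothelium. It gave 3.99 and 3.86 in wild type against 4.98 and 4.60 in knockout. Both knockout arrays were higher, but all 4 values lay below the median of their array and the knockout arrays lay 0.38 apart. The means were 3.93 ± 0.09 and 4.79 ± 0.27 (SD, n = 2 each). The log2 difference of 0.86 (SE 0.19, 95% interval 0.39 to 1.34 without adjustment) did not pass (limma adjusted p = 0.088). It passed where p-values were adjusted over 1 mean value per gene (adjusted p = 0.037).

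KRT23, a type I keratin found in some glandular epithelia and in diseased liver, gave 8.15 and 8.04 in wild type against 7.84 and 7.87 in knockout. It was the only gene whose brightest probe set was lower in knockout without overlap. The log2 difference of -0.24 (SE 0.11, 95% interval -0.50 to 0.02) did not pass (limma adjusted p = 0.398). KRT80, a type II keratin of many epithelia, gave 2.76 and 3.34 in wild type against 3.60 and 3.26 in knockout. All 4 values lay below the 25th percentile of their array, so a level above background was not shown, and no fold is given.

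**Figure D2:**
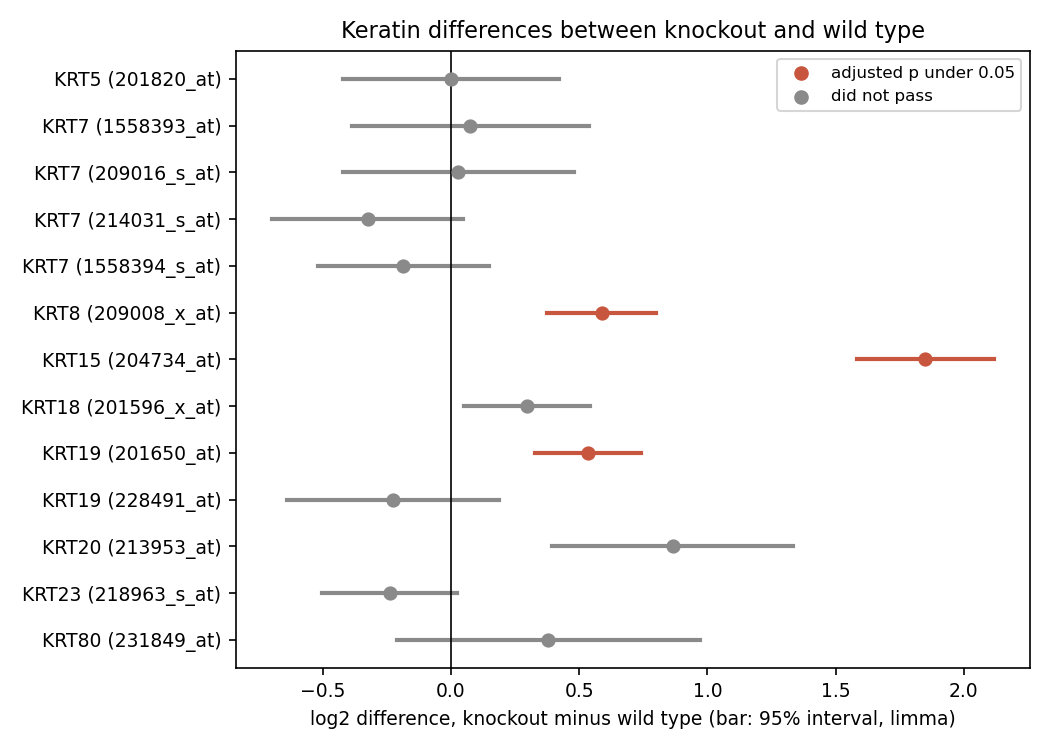
Log2 difference, knockout minus wild type, of each of the 13 keratin probe sets, with 95% intervals from limma that are not adjusted for the number of probe sets. Red marks the 3 probe sets with an adjusted p under 0.05, KRT15 at 1.85, KRT8 at 0.59 and KRT19 at 0.53; the second KRT19 probe set lies at -0.23.

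Most keratin genes lie in a pair of clusters, type II genes on chromosome 12 and type I genes on chromosome 17, with KRT18 as the type I gene placed beside KRT8. In RefSeq order, KRT15 and KRT19, which both rose, were next to each other, and KRT8 was next to KRT18, which did not pass. On chromosome 12, 0 of 38 other measured genes of the cluster and its flanks (10 genes on each side) were called by limma, with a median of 0.03. On chromosome 17, 1 of 64 was called, JUP in the flank, and the median was 0.04. The share called over all genes was 4.82%. The 23 keratin-associated protein genes between the type I keratins, which encode matrix proteins of hair, had a median of 0.03 and 0 calls. Only KRTAP1-3 (6.70), KRTAP3-1 (5.37) and KRTAP17-1 (5.08) had a wild-type mean above both wild-type array medians (4.96 and 5.04). The others were dimmer, down to a wild-type mean of 2.05 for KRTAP9-9. For the dimmest, a level above background was not shown, so their lack of calls does not show unchanged expression. KRT20 was next to KRT23, which had the opposite sign, and neither passed.

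The remaining keratins gave no calls. Of 45 listed, 35 were measured and 0 rose or fell, with log2 differences of -0.25 to 0.36 and a median of 0.06. By their brightest probe set, 21 of the 35 lay below the array median on all 4 arrays. The brightest was KRT10, a keratin of differentiating epidermis, which read 9.77 and 9.89 in wild type against 9.97 and 9.88 in knockout (log2 difference 0.10, SE 0.10, limma adjusted p = 0.806). Other intermediate filament genes likewise had 0 calls of 15, with a median of -0.00, and the brightest was LMNB1, encoding a nuclear lamin, at a difference of 0.11 (limma adjusted p = 0.780). Their differences ran from -0.53 to 0.62, with 7 positive and 8 negative. The lowest was VIM, the mesenchymal filament protein vimentin, which read 6.06 and 5.73 in wild type against 5.25 and 5.48 in knockout. Its difference of -0.53 did not pass (limma adjusted p = 0.243). The highest was NES (nestin), whose difference of 0.62 did not pass either (limma adjusted p = 0.085).

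Keratin filaments are anchored to the membrane at desmosomes. Of 20 desmosome and cytolinker genes, 19 did not pass, 0 fell and 1 rose, and the median was 0.19. Over all genes 4.82% were called, so 1 in 20 is near the background. The gene that rose was JUP, encoding plakoglobin of the desmosomal plaque. It read 9.57 and 9.56 in wild type against 10.20 and 10.21 in knockout, which differ by 0.64 in log2 (SE 0.09, limma adjusted p = 0.024), on a probe set that may cross-hybridise. DSP, encoding desmoplakin, which ties keratins to the plaque, had a difference of 0.57 that did not pass (limma adjusted p = 0.074). The 4 measured genes of hemidesmosomes and epidermal laminin had 0 calls and a median of -0.05. The brightest of them, ITGA6, an integrin subunit, had a difference of -0.41 (limma adjusted p = 0.611). The 13 genes that bind or regulate keratin filaments had 0 calls by their brightest probe sets and a median of -0.03, with PNN (pinin) as the brightest at 0.19 (limma adjusted p = 0.414). Among their other probe sets, 1 of YWHAE, a 14-3-3 protein, fell by 0.92 (limma adjusted p = 0.030), and 1 of SFN, the 14-3-3 protein of epithelia that binds keratins, rose by 0.67 (limma adjusted p = 0.020). The cornified envelope genes of terminal squamous differentiation had 0 calls of 11 and a median of 0.08. CSTA, an inhibitor of cysteine proteases, was the brightest of these, and its difference of 0.44 did not pass (limma adjusted p = 0.075).

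Epithelial transcription factor genes, 22 measured, had a median of 0.22: 3 rose and 1 fell, the other 18 not passing, each gene read by its brightest probe set. KLF5, a factor of proliferating epithelium, read 9.60 and 9.61 in wild type against 11.10 and 10.99 in knockout, higher by 1.45 in log2 (SE 0.09, limma adjusted p = 0.0029). Its second probe set gave 1.16 and did not pass (limma adjusted p = 0.263). ELF3, an epithelium-specific ETS factor, rose by 0.70 and CDX2, the intestinal homeobox factor, by 0.70. The other CDX2 probe set gave 0.10 and did not pass. KLF4, a factor of differentiating epithelium, read 6.40 and 6.09 in wild type against 4.45 and 4.49 in knockout, which fell by 1.77 on the log2 scale (SE 0.17, limma adjusted p = 0.010). Its other, dimmer probe set gave -0.05 and did not pass. The called probe sets of KLF5 and KLF4, and the brightest of ELF3, are of the type that may cross-hybridise. ELF3 also rose on a probe set not of that type, by 0.78 (limma adjusted p = 0.023). ZEB1, a repressor of epithelial genes, did not pass on its brightest probe set (-0.33, limma adjusted p = 0.553), but 1 of its 3 other probe sets fell. That probe set read 4.91 and 4.58 in wild type against 2.15 and 2.37 in knockout. It fell by 2.49 on the log2 scale (SE 0.19, limma adjusted p = 0.0052). All 4 values lay below the median of their array. Both knockout values lay below the 25th percentile, where levels could not be told from background, so the size of this fall is uncertain. The remaining ZEB1 probe sets gave -0.51 and 0.00 and did not pass. SNAI1, of the same list, gave 0.40 and did not pass (limma adjusted p = 0.279).

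Epithelial adhesion genes had a median of 0.08, and of 17 measured 4 rose, 0 fell and 13 did not pass. Over all 19775 genes, 434 rose and 519 fell. CDH3 (P-cadherin) rose by 1.11, SPINT1 (an inhibitor of epithelial surface proteases) by 0.82, ESRP1 (an epithelial splicing factor) by 0.62 and CLDN1 (a tight junction claudin) by 0.53. Second probe sets of SPINT1 (0.50), ESRP1 (0.46) and CLDN1 (0.60) did not pass (limma adjusted p = 0.183, 0.089 and 0.317). In this list 13 differences were positive and 4 negative, down to -0.56. EPCAM and CDH1, defining genes of epithelial cells, had differences of 0.15 and 0.34 that did not pass. With any single array left out, 0 of the 137 listed genes outside the 10 keratins were called by limma, against 9 with all arrays. At an unadjusted p under 0.05 there were then 20 to 33 such genes, against 36.

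The keratins were read beside markers of the cell types that use them. The 8 hepatocyte markers were all measured above the array median, and 1 fell, SERPINA1, by 0.49 (SE 0.08, limma adjusted p = 0.040). Other probe sets of SERPINA1, APOA2 and FGB also fell, by 0.96, 0.81 and 0.56. ALB read 13.90 and 13.70 in wild type against 13.82 and 13.96 in knockout. Bile duct markers apart from keratins had 0 calls of 7. The brightest was CD24 (log2 difference 0.18, limma adjusted p = 0.427), and their summed level, in log2, was 13.87 to 14.08 in wild type and 14.08 to 14.14 in knockout. SOX9, a bile duct factor, read 11.05 and 11.04 in wild type against 10.91 and 10.91 in knockout (limma adjusted p = 0.561). Of 5 measured squamous markers 0 were called, SERPINB5 and KRT14 lay below the 25th percentile on all arrays, and the brightest, ITGB4, had a difference of 0.29 that did not pass. Their summed level was 7.26 to 7.50 in wild type and 7.55 to 7.76 in knockout.

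Intestinal markers, relevant to KRT20, had 2 rises in 6. Of these 6 genes, 3 had positive and 3 negative differences, from -0.27 to 1.55, with a median of 0.15. CDH17, an intestinal cadherin, read 9.03 and 8.78 in wild type against 10.37 and 10.55 in knockout, higher by 1.55 in log2 (SE 0.13, limma adjusted p = 0.0062), and CDX2 was the other. The brightest marker, VIL1 (villin), had a difference of 0.38 that did not pass, and FABP2 lay below the 25th percentile on all arrays. The summed level was 10.64 to 10.74 in wild type and 11.49 to 11.57 in knockout. Of 5 urothelial markers 1 rose, PPARG, by 1.01 (SE 0.13, limma adjusted p = 0.020), on a probe set that may cross-hybridise. Among the 5, 3 differences were positive and 2 negative, down to -0.56, with a median of 0.07. The summed level of urothelial markers was 9.36 to 9.51 in wild type and 9.91 to 10.00 in knockout. PPARG alone made up much of it, at 8.61 and 8.34 in wild type against 9.55 and 9.41 in knockout. The higher sum is therefore not a rise of the markers as a group. The part of these markers in the keratin values was not tested.

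Markers of other lineages gave 0 calls by their brightest probe sets in limma (4 mesothelial, 8 fibroblast, 6 endothelial and 4 leukocyte genes measured). The summed level of fibroblast markers was 8.20 to 8.39 in wild type and 8.37 to 8.44 in knockout, with LUM below the 25th percentile on all arrays. The brightest of each were CALB2 (difference -0.01), COL1A1 (0.13), PECAM1 (-0.88) and LYZ (-1.58). Other probe sets of PECAM1 and LYZ did pass, at -0.76 and -2.02. The 4 other COL1A1 probe sets gave -0.05 to 1.43, and none passed. Summed levels of endothelial markers were 7.93 to 8.08 in wild type and 7.54 to 7.72 in knockout, with KDR and CDH5 below the 25th percentile throughout. PECAM1, a large part of that sum, read 7.17 and 7.37 in wild type against 6.58 and 6.20 in knockout. Leukocyte sums were 10.71 to 11.33 and 9.31 to 9.93, with PTPRC, which defines leukocytes, below the 25th percentile throughout. LYZ made up most of each leukocyte sum, at 11.27 and 10.59 in wild type against 8.95 and 9.75 in knockout. The lower sums are therefore not a fall of either group of markers. Mesothelial sums were 5.86 to 6.23 and 6.01 to 6.11, with MSLN below the 25th percentile throughout.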

How the data were processed

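Gene expression was measured with Affymetrix arrays in 2 wild-type and 2 KDM6B knockout samples of HuH7 cells, grouped by sample title. The deposited values are log2 expression values, which the authors made with RMA and the affy package per the submitters' processing notes, with no version stated there. Since RMA equalizes the distributions of arrays, it would remove a shift common to most genes. The table held 54613 probe sets with values from 1.57 to 14.33, and medians of 4.96 to 5.05 per array. There were no detection calls, and precision is limited by having 4 arrays. The platform annotation gave 41091 probe sets 1 symbol, 1801 several and 11721 none, and genes were named only from the first kind.

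Knockout was compared with wild type with limma 3.58.1 (R 4.3.3), using lmFit and eBayes with trend = TRUE over all probe sets and no filter. P-values were two-sided and adjusted over all probe sets (Benjamini-Hochberg), and probe sets under 0.05 were called. Residual degrees of freedom were 2, to which the variance prior added 3.89. No exact permutation test was run, since its smallest p here is 0.333. A listed gene was represented by its brightest probe set of 1 symbol. All keratin probe sets were described, and of other lists up to 3 called genes in each direction or else the brightest gene, and of each marker list also its brightest gene. Genes named besides these (KRT8P12, KRT14, VIM, NES, DSP, CDH1, EPCAM, CLDN1, SOX9, ZEB1, SNAI1, YWHAE, SFN, APOA2, FGB and the dim markers) were chosen after their values were seen. The members, lists and motifs were chosen with earlier results of these data known. The fit was tested on simulated data. Gene order and promoters came from RefSeq (GRCh38.p14). Alternatives were the variance trend, blocks, left-out arrays, normalization, filters, probe set choice and threshold. Python 3.11.15 with pandas 2.3.3 was used for tables and matplotlib 3.10.9 for figures.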

Additional observations from a re-analysis of the deposited data

How the results depend on the processing

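Counts are given for all 54613 probe sets, then the 13 keratin probe sets, then the 137 listed genes outside the keratins, with 1587, 3 and 9 calls as reported. Without the intensity trend they were 641, 1 and 3, and with _s_at and _x_at probe sets removed 831, 2 and 4. An adjusted p under 0.10 gave 2954, 4 and 14, and a 2-fold difference without a test 854, 1 and 3. The mean of probe sets per gene gave 16 listed genes. Leaving out 1 array gave 0 to 82 calls, 0 to 1 and 0 to 0, where a single remaining array borrows the spread of the other group and the fit has fewer samples. For the other changes the cause was not tested.

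Replicate differences (number 2 minus 1) correlated at -0.50 between the groups over all probe sets. The labels do not state that the replicate numbers pair arrays, so the fit as reported held no block. The replicate block left 77, 0 and 0 calls (limma, with 4 keratin probe sets and 22 listed genes at an unadjusted p under 0.05). The crossed block, chosen after seeing the data, gave 4349, 4 and 22.

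KRT8, KRT15 and the brighter KRT19 probe set stayed higher in knockout under every setting that held them, and the second KRT19 probe set stayed lower (-0.33 to -0.12). KRT18 was called under the crossed block only (adjusted p = 0.015). KRT5 ranged from -0.15 to 0.15 with single arrays left out. The brightest KRT7 probe set ranged from -0.15 to 0.30 with single arrays left out, and the mean of all 4 gave -0.10. The second KRT7 probe set ranged from -0.14 to 0.20 with single arrays left out, and changed sign under repeated quantile normalization (-0.0062) and under median centring (-0.0026). None of these passed the test. With no detection calls, levels near the 25th percentile (3.53 to 3.67) could not be told from background.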
